A study of Mus musculus with 214 samples.

Results

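The genes described here are the enzymes and regulators with which the liver makes fatty acids from sugar, namely Fasn, Acaca, Acacb, Acly, Scd1, Elovl6, Srebf1, Thrsp, Me1 and Pnpla3. They were taken by symbol, and all 10 were present among the 18647 genes of the table for WT mice and the 19540 genes of the table for Mgmt-/- mice. RNA from pieces of whole liver had been measured by 3′ digital gene expression, a method that counts molecular barcodes near the polyadenylated end of each transcript. All mice were RaDR+/+;GPT+/+ on a C57BL6 background, which carry a fluorescent recombination reporter and a mutation reporter, and the mice called WT differed from Mgmt-/- mice by having the gene for the DNA repair protein MGMT. NDMA, an alkylating carcinogen, or saline had been injected intraperitoneally at an age of 8 days (3.5 mg/kg) and again at 15 days (7 mg/kg), and livers were taken 1, 2 and 5 days (ages 16, 17 and 20 days), 10 weeks and 10 months after treatment (Day1, Day2, Day5, Week10 and Month10). Litters had been designated to a treatment at birth, and the labels do not name the litters, so that animals of a group can share a litter and the p-values measure only the spread between these mice.

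Values were available for 213 of 214 labelled livers. For NDMA and saline respectively, WT mice gave 26 and 21 libraries at Day1, 8 and 8 at Day2, 8 and 7 at Day5, 8 and 8 at Week10, and 13 and 10 at Month10. Mgmt-/- mice gave 12 and 12 at Day1, 8 and 7 at Day2, 8 and 8 at Day5, 8 and 8 at Week10, and 13 and 12 at Month10. The depth recovered from the values ran from 150038 to 4791649 molecular counts in WT libraries (median 1710016) and from 713584 to 7740710 in Mgmt-/- libraries (median 2347670). The deposited tables had been normalized separately by genotype, so a level in one genotype is not on the same scale as a level in the other.

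Some libraries stood apart before any comparison. In 2 Mgmt-/- saline Day5 libraries, D389011 and D389017, the kidney androgen-regulated gene Kap was at 6147 and 7562, and albumin (Alb), the major protein made by hepatocytes, at 526 and 161, whereas all other Mgmt-/- libraries had Kap of at most 13.9 and Alb of at least 29809.5. They were dropped, which left 6 saline livers at that time. With them kept, Fasn was the 1 member called at that time, and Srebf1 (-0.55, adjusted p = 0.285) and Thrsp (-2.59, 0.267) were not. Each WT NDMA group from Day2 on held 1 library with fewer than 300000 counts (D215006, D215014, D215022 and D215030), and Srebf1 was listed at 0 in the first 3 of these. In 2 WT NDMA Day1 libraries, D209072 and D209077, sex-specific genes went against the label, and without them the same 5 members were called at that time.

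To build palmitate, ATP citrate lyase (Acly) splits acetyl-CoA off citrate, acetyl-CoA carboxylase (Acaca and Acacb) turns it into malonyl-CoA, and fatty acid synthase (Fasn) joins the pieces with reducing power from NADPH, part of which malic enzyme (Me1) provides. The product is lengthened by Elovl6 and desaturated by Scd1 before it enters triglycerides. In liver these genes are switched on together by insulin through the transcription factor SREBP-1c, a product of Srebf1, and by carbohydrate through ChREBP, and they are low in the suckling pup, which lives on fat-rich milk, and rise at weaning.

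The question of the main comparison was how the liver transcriptome of treated mice differed from that of saline mice of the same genotype and time. A gene was called where its adjusted p from limma was below 0.05 and its log2 fold change, NDMA minus saline on log2 of the value plus 1, was beyond 0.58 in either direction. Srebf1 and Thrsp fell in 5 of 5 times in Mgmt-/- livers, Fasn and Acly in 3 of 5 times, and the number of members lower than saline was 2 of 8 tested at Day1, 2 of 8 at Day2, 4 of 8 at Day5, 6 of 9 at Week10 and 7 of 9 at Month10. Of all genes tested, 8.64%, 7.5%, 6.71%, 3.88% and 2.99% were called lower at those times. In WT livers 3 of 8 members tested fell at Day1, where 4.19% of all genes were called lower, and none passed at any later time. Scd1 and Elovl6 rose in both genotypes at Day1, and Me1 rose in Mgmt-/- livers, beside 5.01% of all genes called higher in WT and 9.06% in Mgmt-/- livers. No member was called higher in Mgmt-/- livers at Day2, Day5, Week10 or Month10, when 12.4%, 11.1%, 7.27% and 4.75% of all genes were. Elovl6 was called higher at Day2 when saline D389006 was left out. The median log2 fold change over the members tested in Mgmt-/- livers was 0.157 at Day1, -0.11 at Day2, -0.67 at Day5, -1.04 at Week10 and -0.87 at Month10, and at Week10 the median over all genes was 0.0396. Leaving out NDMA D209006, NDMA D209029 or saline D209026 left Fasn, Srebf1 and Thrsp as the 3 members called at Week10. In bulk liver, fewer cells of a type and less RNA per cell cannot be told apart.

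**Figure D1:**
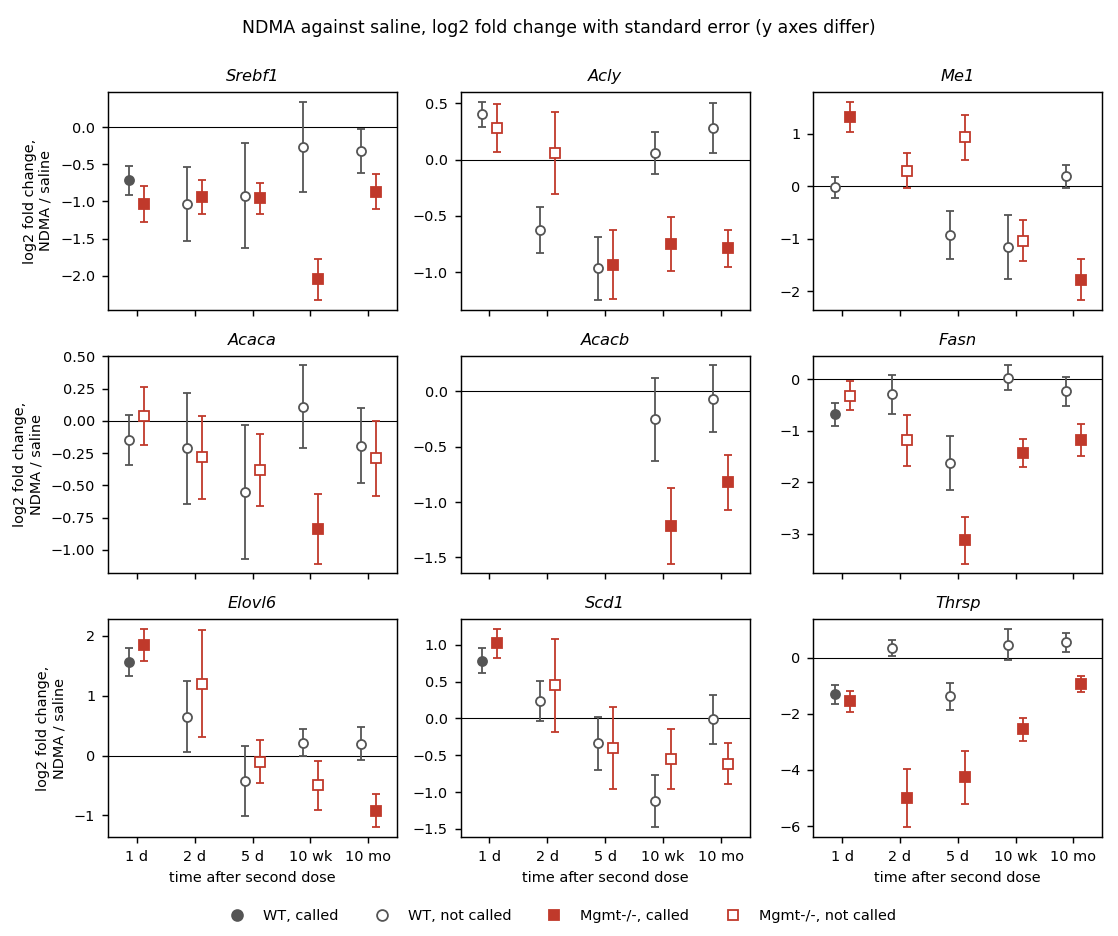
Log2 fold change of NDMA against saline (vertical axis, on log2 of value plus 1, bars are standard errors) at the 5 times for 9 members, WT as grey circles and Mgmt-/- as red squares, with filled symbols for calls; vertical axes differ between panels. The squares for Srebf1 and Thrsp are filled and below 0 at all 5 times, and those for Scd1 and Elovl6 are filled above 0 at Day1.

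Srebf1, the regulator, lies on chromosome 11 (GRCm38, chr11:60199089-60222581, minus strand). Its normalized value in Mgmt-/- livers at Day1 was 49.7 at the lowest, 79.9 at the median and 189 at the highest in 12 saline livers, and 9.05, 54.8 and 82.7 in 12 NDMA livers. At Day5 the 6 saline livers ran from 28.3 over 42.9 to 52.2 and the 8 NDMA livers from 14.1 over 23.4 to 28.0. At Week10 the values were 78.7, 109.8 and 261 in 8 saline livers and 14.7, 26.3 and 78.4 in 8 NDMA livers. NDMA and saline livers did not overlap at Day5 or at Week10, whereas at Day1 they did and 11 of 12 NDMA livers lay below the saline median. The log2 fold change was -1.03 ± 0.24 (SE, adjusted p = 0.00173) at Day1, -0.94 ± 0.23 (0.00256) at Day2, -0.96 ± 0.20 (0.00105) at Day5 and -2.05 ± 0.28 (1.51e-05) at Week10. At Month10 saline livers ran from 255 over 329 to 472 and NDMA livers from 45.4 over 166 to 312, where 8 of 13 NDMA livers were below all 12 saline livers and the log2 fold change was -0.87 ± 0.23 (adjusted p = 0.0139). The Month10 difference missed the threshold when each library was set to an equal total (adjusted p = 0.0513).

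WT livers gave a call for Srebf1 at Day1 alone. There, 21 saline livers ran from 27.1 over 65.7 to 150.1 and 26 NDMA livers from 9.72 over 33.1 to 110.7, and 22 of 26 NDMA livers lay below the saline median (log2 fold change -0.71 ± 0.19, adjusted p = 0.00551). At Week10 the medians were 21.9 with saline and 27.5 with NDMA, and at Month10 191 and 182, with overlap at both times. Without the library of few counts, the WT log2 fold changes were -0.50 at Day2, -0.22 at Day5 and 0.35 at Week10, none of them called.

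Acly and Me1 supply the synthesis, Acly the acetyl-CoA and Me1 NADPH. The gene Acly (chr11:100476353-100528000, minus strand) had Mgmt-/- saline values of 136 at the lowest, 239.7 at the median and 724 at the highest at Day5, against 116, 139 and 165 with NDMA. All 8 NDMA livers were below the saline median and 3 of 8 below every saline liver (log2 fold change -0.93 ± 0.31, adjusted p = 0.0443). The Week10 difference was -0.75 ± 0.24 (adjusted p = 0.0412), with medians of 226 and 117, and the Month10 difference -0.79 ± 0.16 (0.00186), with medians of 426 and 242 and all 13 NDMA livers below the saline median. The Month10 call held in all 9 alternatives, while the Day5 call held in 12 of 24 and the Week10 call in 10 of 25. WT livers differed at Day1 in the other direction by less than the fold threshold (0.40 ± 0.11, adjusted p = 0.00634, medians of 67.7 and 79.8).

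Me1 (chr9:86581371-86695953, minus strand) changed direction with time in Mgmt-/- livers. At Day1 it ran from 1.67 over 5.86 to 13.8 in 12 saline livers and from 6.44 over 18.2 to 30.8 in 12 NDMA livers. At Month10 the saline values were 95.3, 219.6 and 387 and the NDMA values 7.73, 71.0 and 200.4. Thus 8 of 12 NDMA livers lay above every saline liver at Day1, and 9 of 13 lay below every saline liver at Month10. The log2 fold change was 1.32 ± 0.28 (adjusted p = 0.000493) at Day1 and -1.78 ± 0.39 (0.00395) at Month10. At Week10 all 8 NDMA livers were below the saline median (67.9 against 28.1), and the difference of -1.04 ± 0.39 missed the threshold (adjusted p = 0.0956). WT medians for Me1 were 5.93 and 6.06 at Day1 and 119 and 127 at Month10, and Me1 was called in no WT comparison of NDMA with saline.

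The promoter stretches of Acly and Me1 are shown because both genes carry repeated GC boxes, the letters GGGCGG to which Sp1 binds and which often lie beside SREBP sites. Each stretch covers the 120 bases before a transcription start in RefSeq, build GRCm38.p6, both on the minus strand, at chr11:100528001-100528120 and chr9:86695915-86696034. It is written 5′ to 3′ along the gene, and capitals mark GGGCGG or its reverse complement CCGCCC. Me1 has 2 starts in RefSeq, and GC boxes were found at 1 of them, the one shown. Part of the Me1 stretch lies within the gene span given above, which is taken from GENCODE.
Acly: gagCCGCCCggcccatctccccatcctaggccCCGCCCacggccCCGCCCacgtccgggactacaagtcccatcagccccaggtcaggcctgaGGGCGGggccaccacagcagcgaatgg
Me1: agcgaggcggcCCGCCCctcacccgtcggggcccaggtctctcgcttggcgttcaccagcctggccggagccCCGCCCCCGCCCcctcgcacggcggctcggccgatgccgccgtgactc
The GC boxes of Acly begin at 117, 88, 76 and 27 bases before the start and those of Me1 at 109, 48 and 42 bases before it.

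Acetyl-CoA carboxylase is the committed step, Acaca being the form of lipogenic tissues and Acacb the mitochondrial form that makes malonyl-CoA for the control of fatty acid oxidation. For Acaca (chr11:84129672-84401651, plus strand) the Mgmt-/- values at Week10 were 12.3, 19.7 and 34.7 with saline and 5.11, 12.8 and 18.5 with NDMA. The log2 fold change was -0.84 ± 0.27 (adjusted p = 0.045), with 4 of 8 NDMA livers below every saline liver, and it was called in 9 of 24 alternatives. For Acacb (chr5:114146535-114250761, plus strand) the Week10 values were 11.2, 35.6 and 66.8 with saline and 6.82, 11.9 and 22.3 with NDMA. All 8 NDMA livers lay below the saline median (-1.21 ± 0.34, adjusted p = 0.0207), and at Month10 the medians were 78.0 and 53.1 (-0.82 ± 0.25, 0.0307). Both Week10 calls were lost when libraries were set to an equal total (adjusted p = 0.172 for Acaca and 0.0771 for Acacb), as was the Month10 call of Acacb (0.0757). Acacb was listed at 0 in 15 of 21 WT saline livers at Day1, and neither gene was called in a WT comparison with NDMA.

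Fasn (chr11:120805846-120824547, minus strand) fell at 3 times in Mgmt-/- livers. At Day5 it ran from 8.96 over 27.1 to 66.5 with saline and from 0 over 2.14 to 7.57 with NDMA. At Week10 the values were 64.0, 122 and 387 with saline and 20.2, 54.6 and 100.5 with NDMA, and at Month10 they were 279, 637 and 952 with saline and 44.5, 218 and 735 with NDMA. The groups did not overlap at Day5, and 7 of 8 NDMA livers at Week10 and 7 of 13 at Month10 lay below every saline liver. The log2 fold changes were -3.12 ± 0.45 (adjusted p = 1.35e-05), -1.44 ± 0.27 (0.000596) and -1.18 ± 0.31 (0.0143). Those calls held in all 23, 25 and 9 alternatives that tested Fasn. At Day5 Fasn reached the mean of 5 needed for a test through the saline livers (mean 30.3, NDMA 2.57). Its Day5 call is to be read with that limit. At Day1 the Mgmt-/- medians were 10.5 and 9.63. At Day2 they were 7.34 and 7.04, and the difference of -1.19 ± 0.49 did not pass with limma (adjusted p = 0.0831). It was called lower with edgeR, with DESeq2 and in limma without saline D389041.

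With MGMT present, Fasn fell at Day1, from 3.53, 8.27 and 18.6 with saline to 0, 5.27 and 17.3 with NDMA, and 10 of 26 NDMA livers lay below every saline liver (-0.68 ± 0.22, adjusted p = 0.0232). The call held in 5 of 12 alternatives. At WT Day5 the saline values were 10.8, 21.2 and 48.0 and the NDMA values 1.04, 7.88 and 17.6, where all 8 NDMA livers lay below the saline median and 5 below every saline liver. The difference of -1.63 ± 0.52 did not pass with limma (adjusted p = 0.0873), passed with edgeR on the recovered counts (-1.96 ± 0.45, adjusted p = 0.00696), and passed with limma without the library of few counts (-1.81 ± 0.51, 0.0269).

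The stretches before the starts of Fasn, Thrsp and Srebf1 are shown because they hold CCAAT boxes, the letters to which NF-Y binds. They cover 120 bases before the start in RefSeq, build GRCm38.p6, minus strand. The positions are chr11:120824548-120824667 for Fasn, chr7:97417551-97417670 for Thrsp and chr11:60210472-60210591 for one of the starts of Srebf1. The whole Thrsp stretch lies inside the GENCODE span of the gene (chr7:97412938-97417730), which begins further upstream than the RefSeq start. The Srebf1 stretch likewise lies inside the GENCODE span of Srebf1. Which starts these livers used was not tested. Capitals mark CCAAT or its reverse complement ATTGG and, in Srebf1, also GGGCGG.
Fasn: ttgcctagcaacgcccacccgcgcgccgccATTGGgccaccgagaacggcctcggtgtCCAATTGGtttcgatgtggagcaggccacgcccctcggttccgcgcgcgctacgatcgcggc
Thrsp: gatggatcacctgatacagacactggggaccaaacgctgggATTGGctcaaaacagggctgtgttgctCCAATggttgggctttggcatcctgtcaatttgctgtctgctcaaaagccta
Srebf1: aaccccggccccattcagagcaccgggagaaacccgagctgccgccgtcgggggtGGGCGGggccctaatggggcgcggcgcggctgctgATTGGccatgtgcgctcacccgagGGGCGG
The CCAAT boxes begin at 90, 62 and 59 bases before the start in Fasn, where the last pair overlap, at 79 and 52 bases in Thrsp and at 30 bases in Srebf1. Windows of 300 bases, from 250 before to 50 after the start, were found for 9 of the 10 members, in 12 windows. Either strand held CCAAT in 8 of the 12 and GGGCGG in 5, beside 37.4% and 35.7% of all 32851 such windows. The SREBP motif TCACNCCAC and the E-box CACGTG were in 0 of 12, beside 1.24% and 7.15% of all windows, which says only that these letters are not in those windows.

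Elovl6, the elongase that takes palmitate to stearate (chr3:129532355-129638495, plus strand), rose at Day1 in both genotypes. WT livers ran from 0 over 2.09 to 6.36 with saline and from 3.06 over 6.24 to 20.4 with NDMA, and Mgmt-/- livers from 1.64 over 3.73 to 13.6 and from 10.3 over 19.3 to 29.2. All 26 WT and all 12 Mgmt-/- NDMA livers lay above the saline median, and 13 of 26 and 9 of 12 lay above every saline liver. The log2 fold changes were 1.56 ± 0.23 (adjusted p = 6.88e-07) and 1.84 ± 0.27 (1.41e-06). In WT livers Elovl6 just reached the mean of 5 needed for a test (5.16), through the NDMA livers (mean 7.59, saline 2.16). The WT test was thus run on a gene admitted by its own rise. At Day2 the Mgmt-/- medians were 2.06 with saline and 12.9 with NDMA, and all 8 NDMA livers lay above the saline median. That difference was not called (1.20 ± 0.89, adjusted p = 0.371 with limma) but was without saline D389006. By Month10 the Mgmt-/- difference had the opposite sign, with medians of 316 and 159 and 12 of 13 NDMA livers below the saline median (-0.92 ± 0.28, adjusted p = 0.0314), a call that was lost when libraries were set to an equal total (0.0624).

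Scd1, the desaturase that makes oleate (chr19:44394455-44407879, minus strand), also rose at Day1. WT saline livers ran from 6.91 over 26.8 to 154 and NDMA livers from 24.9 over 61.7 to 167, and Mgmt-/- livers from 19.8 over 39.0 to 177 and from 32.2 over 90.4 to 243. The groups overlapped, with 24 of 26 WT and 10 of 12 Mgmt-/- NDMA livers above the saline median (0.78 ± 0.18, adjusted p = 0.000665, and 1.02 ± 0.19, 0.000127). Without terms for sex and batch the Mgmt-/- call was lost in limma, at an unchanged fold (1.02 ± 0.39, adjusted p = 0.0753). Scd1 was not called later in the main comparison. At Day2 the Mgmt-/- medians were 43.3 and 94.9, with all 8 NDMA livers above the saline median (0.45 ± 0.63, adjusted p = 0.659). At Week10 the WT medians were 3721 and 1259 (-1.13 ± 0.35, adjusted p = 0.910, all 8 NDMA livers below the saline median), and the Mgmt-/- medians at Month10 were 11070 and 5672 (-0.62 ± 0.28, 0.169).

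Day1 livers of both genotypes came from several library batches, named by the labels, and the members were compared within each. WT medians of Elovl6 went from 2.56 to 5.71 in 191212Eng, from 2.13 to 4.95 in 200803Eng and from 1.60 to 9.41 in 210901Eng. Scd1 was 1.52 ± 0.22 higher (adjusted p = 2.43e-05) in 191212Eng, -0.22 in 200803Eng and 0.69 (0.0705) in 210901Eng. Srebf1 was -0.78 in 191212Eng (adjusted p = 0.0403), 0.38 in 200803Eng and -1.24 ± 0.27 (0.00173) in 210901Eng. Thrsp was -1.55 in 191212Eng (adjusted p = 0.109), -0.42 in 200803Eng and -1.60 ± 0.46 (0.0187) in 210901Eng. The WT direction of Elovl6 and Thrsp was thus shared by all 3 batches, and Scd1 and Srebf1 had the other sign in 200803Eng. That batch held 4 saline and 6 NDMA livers, among the latter both libraries whose sex genes went against the label, and 0 of 8965 genes were called in it (limma, 264 at an unadjusted p under 0.05), so that its count of 0 members says nothing about the members. Within a batch, the WT calls of Scd1 and Thrsp were found in 1 of 3, that of Srebf1 in 2 of 3 and that of Fasn in 0 of 3. Elovl6 was high enough to be tested in 210901Eng alone, through its NDMA livers (median 9.41, saline 1.60). Its call in that batch therefore adds nothing to the medians. For Mgmt-/- mice all 5 calls held within 191212Eng, and within 200803Eng Me1 (1.43, adjusted p = 0.0433) and Thrsp (-1.03, 0.0231) were called, with Elovl6 at 1.72 (0.0583), Scd1 at 0.87 (0.0679) and Srebf1 at -0.57 (0.201).

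**Figure D2:**
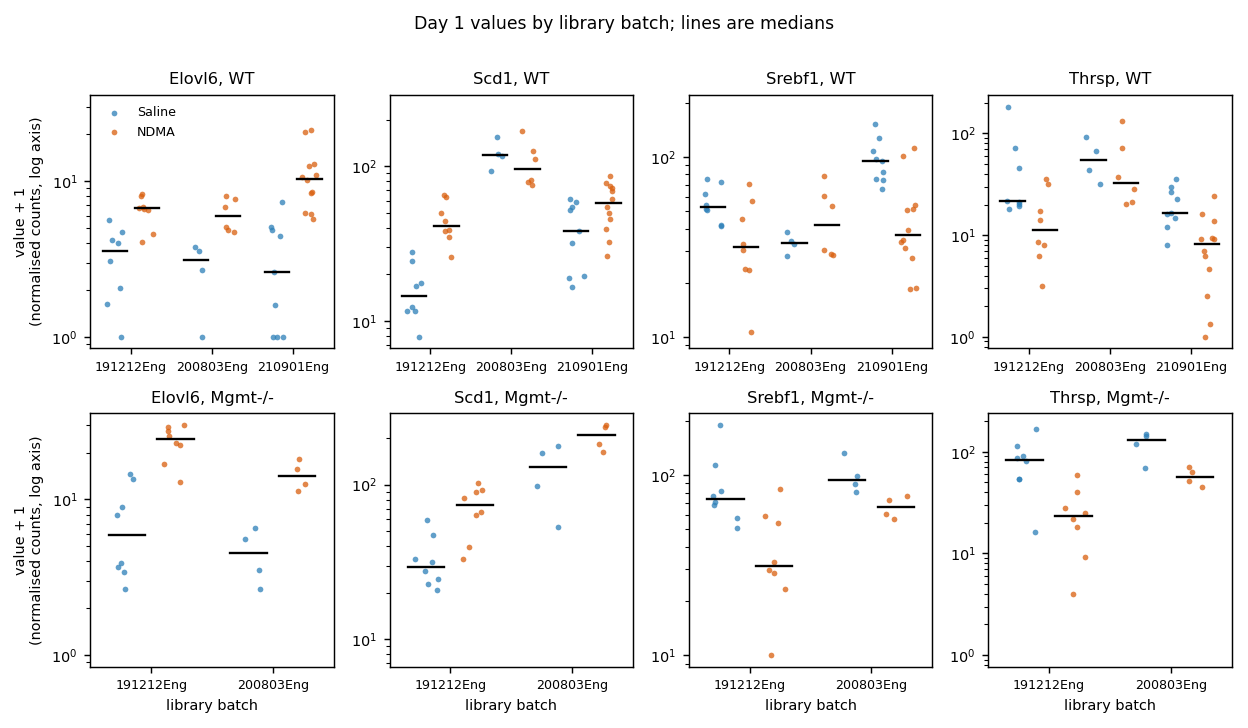
Normalized value of Elovl6, Scd1, Srebf1 and Thrsp in each Day1 library (vertical axis, value plus 1, log scale) by library batch and genotype, saline in blue and NDMA in orange, with lines at the medians. Elovl6 medians were higher with NDMA in each WT batch, whereas in WT livers of 200803Eng Scd1 was not higher and Srebf1 not lower with NDMA, as they were in the other batches.

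Thrsp, the Spot 14 protein that works with acetyl-CoA carboxylase and follows thyroid hormone and carbohydrate (chr7:97412938-97417730, minus strand), had the largest fold changes among the members in Mgmt-/- livers from Day2 to Week10. At Day2 the 7 saline livers ran from 22.0 over 158 to 4148 and the 8 NDMA livers from 2.30 over 5.86 to 13.9. At Day5 saline livers ran from 49.4 over 1226 to 2768 and NDMA livers from 6.23 over 40.8 to 128, and at Week10 from 473 over 3944 to 8012 and from 277 over 580.1 to 747. The groups did not overlap at Day2 and overlapped at Day5 and Week10, and the saline livers spread far more widely than the NDMA livers at all 3 times. The log2 fold changes were -5.01 ± 1.03 (adjusted p = 0.0029), -4.27 ± 0.94 (0.006) and -2.54 ± 0.41 (0.000189). Over the alternatives the Day2 value ran from -7.08 (DESeq2, which gave it no adjusted p) to -4.18 (without the library D389006) and the Day5 value from -5.01 to -2.59, the last with the 2 Kap libraries kept, where the call was lost (0.267). The saline maximum of 4148 at Day2 was that of D389006, the next being at 1665. At Day1 the change was -1.56 ± 0.39 (0.00454), and at Month10 it was -0.94 ± 0.28 (0.0322), a call lost with edgeR, with DESeq2 and without the term for sex.

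WT livers had lower Thrsp at Day1, with medians of 21.7 and 10.5 and 19 of 26 NDMA livers below the saline median (-1.31 ± 0.33, adjusted p = 0.00299), a call found within 210901Eng alone of the 3 batches. At Day2 the WT medians were 51.6 with saline and 71.3 with NDMA. At Month10 they were 912 and 1465, and 8 of 13 NDMA livers lay above every saline liver without passing the test. Pnpla3, a lipase-like protein of lipid droplets (chr15:84167837-84187236, plus strand), never exceeded 11.3 in any liver and was too low to be tested in any comparison.

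**Figure D3:**
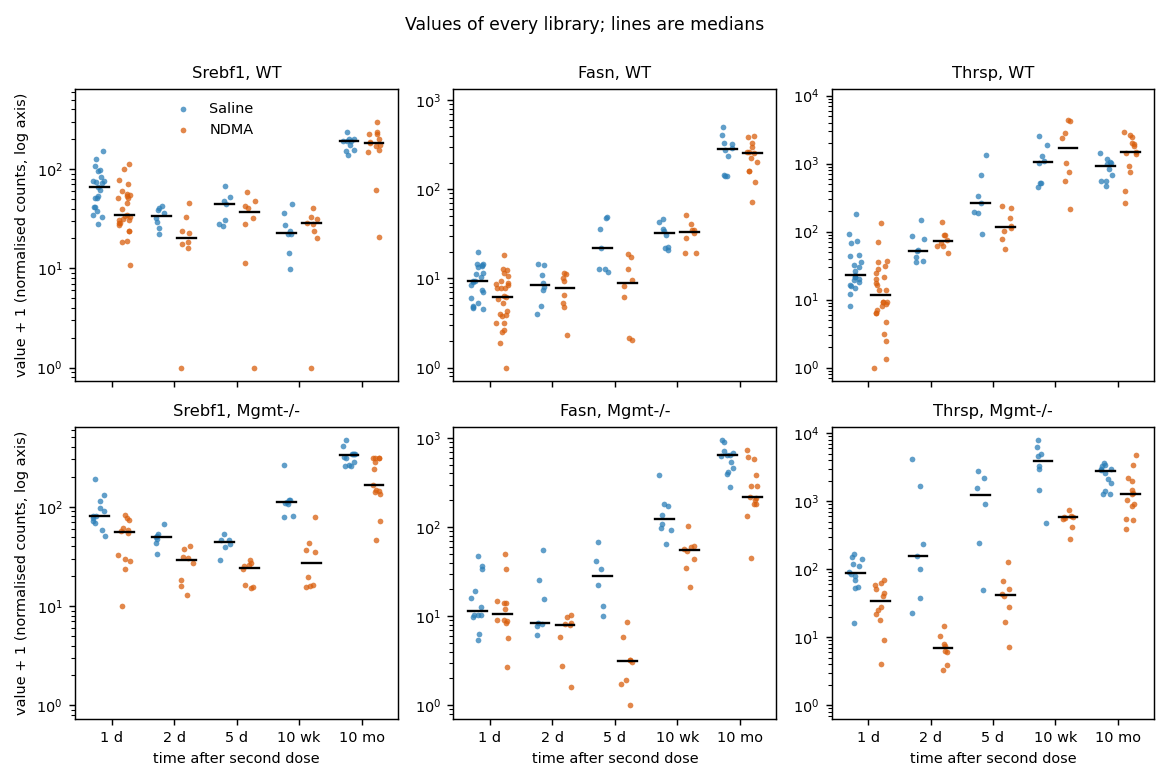
Normalized value of Srebf1, Fasn and Thrsp in each library (vertical axis, value plus 1, log scale) at the 5 times, WT above and Mgmt-/- below, saline in blue and NDMA in orange, with lines at the medians. In Mgmt-/- livers NDMA points lie below all saline points for Srebf1 and Fasn at Day5 and for Thrsp at Day2, whereas WT points overlap.

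At the WT times without a called member, limma gave 0 of 7 tested at Day2, 0 of 8 at Day5, 0 of 9 at Week10 and 0 of 9 at Month10, beside 6.23%, 3.61%, 0.0249% and 0% of all genes. At an unadjusted p under 0.05 the members were 1 (Acly), 3 (Acly, Fasn and Thrsp), 1 (Scd1) and 0, and edgeR and DESeq2 each called 0, 3, 0 and 0, at Day2 with 5 of the 8 saline livers. The 3 at Day5 were the same genes with all of these methods. All 8 members tested at WT Day5 had log2 fold changes below 0, with a median of -0.92. Without the library of few counts, limma called Acly at Day2 (-0.68 ± 0.19, adjusted p = 0.0135) and Acly and Fasn at Day5 (Acly -1.06 ± 0.27, 0.0129).

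Whether NDMA acted differently in the genotypes was tested by an interaction on the recovered counts with edgeR. At Day1 0 of 8 members passed, beside 0.0567% of all genes, with 1 (Me1, 1.21 ± 0.37, adjusted p = 0.152) at an unadjusted p under 0.05 and 0 by DESeq2. Thrsp differed at Day2 (-6.83 ± 1.07, 0.000144), Day5 (-2.79 ± 0.76, 0.0419) and Week10 (-3.70 ± 0.63, 0.000108), negative values meaning a more negative change in Mgmt-/- than in WT livers. At Week10 Srebf1 (-2.10 ± 0.44, 0.00175) and Fasn (-1.51 ± 0.41, 0.0167) passed too, and at Month10 Me1 (-1.74 ± 0.38, 0.00899) and Acly (-1.06 ± 0.26, 0.0208). Of all genes, 1.42%, 0.737%, 2.7% and 0.663% were called in that direction at Day2, Day5, Week10 and Month10. At Day2 5 of the 8 WT saline livers entered, those with recovered counts. At Day2, Day5 and Week10 the genotypes came from different library batches, so batch and genotype cannot be told apart in those interactions. At Month10 all Mgmt-/- livers came from 200803Eng, which held only part of the WT livers. In saline livers at Day1, within shared batches, 0 of 7 members differed between genotypes, beside 0.0102% of all genes, with edgeR, 1 (Srebf1, 0.48 ± 0.18) at an unadjusted p under 0.05, and 0 by DESeq2.

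Saline levels were followed from suckling pup to adult, with neighbouring steps sharing the livers between them. Within a single batch of Mgmt-/- livers, a comparison chosen after seeing which batches held which ages, 8 of 9 members were higher at Week10 than at Day1, beside 4.84% of all genes. The log2 difference was 4.39 ± 0.52 for Scd1, 4.49 ± 0.53 for Elovl6, 4.74 ± 0.58 for Thrsp, 3.36 for Acacb, 2.77 for Me1, 2.32 ± 0.37 for Fasn, 1.77 for Acly and 1.18 for Acaca. Acacb had a mean of 1.67 in all Mgmt-/- saline livers of Day1 and 32.5 in those of Week10. In WT saline livers of Day1 its mean was 0.389. In the age comparisons it thus reached the filter through the older livers, and its calls are to be read with that limit. Over all Mgmt-/- saline livers the ratio of medians, Week10 to Day1, was 50.1 for Scd1, 27.5 for Elovl6 and 11.6 for Fasn, with no overlap of the ages. Those Day1 livers came from 191212Eng and 200803Eng and the Week10 livers from 200803Eng alone, so the ratios mix age with batch. Day1 saline medians were 28.6 for Scd1 and 9.24 for Fasn in 191212Eng, and 129 and 26.8 in 200803Eng. Within the single batch, Srebf1, which encodes the regulator of these genes, was the member that was not called, at 0.22 ± 0.28 with medians of 93.0 and 109.8.

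Between Day5 and Week10, WT livers gained Scd1 (4.43 ± 0.38, adjusted p = 8.72e-13), Elovl6 (2.34 ± 0.47), Me1 (2.02 ± 0.32), Thrsp (1.63 ± 0.45) and Acacb (1.34 ± 0.42), 5 of 9 beside 3.92% of all genes. The call of Acacb was lost with edgeR (adjusted p = 0.0593), with DESeq2 (0.0667) and in the batches that hold both ages (0.0681). The ratios of WT medians were 21.5 for Scd1, 5.53 for Elovl6 and 5.41 for Me1, whose ages did not overlap. Srebf1 fell over the same interval (-0.83 ± 0.21, 0.00346), beside 7.92% of genes called lower, from a median of 43.6 to 21.9, and missed the threshold in the batches that hold both ages (0.0561). WT livers of Day1 and Day5 shared no batch and 1 of 9 members was called (Acly, 1.92 ± 0.46, adjusted p = 0.037), beside 0.243% of all genes. Without terms for sex and batch 5 other members were called (Acacb, Elovl6, Fasn, Scd1 and Thrsp), Acly was not (0.48, adjusted p = 0.211), and Scd1 went from -0.21 to 2.29, so that age and batch cannot be told apart for that step. Over the same interval 4 of 9 members rose in Mgmt-/- livers (Acacb 1.55, Acly 1.37, Scd1 2.08, Thrsp 3.29) and Srebf1 fell (-0.96 ± 0.21), beside 2.21% and 3.02% of genes called higher and lower, and with equal totals Acacb, Acly and Scd1 lost the call. The call of Acacb was also lost with a pseudocount of 5 and without a filter. That of Acly was lost in the batches that hold both ages. That of Scd1 was lost in those batches, without a filter and without terms for sex and batch. From Day5 to Week10 in Mgmt-/- livers Acaca (1.46), Srebf1 (1.18) and Me1 (3.07) rose, beside 2.21%, and those ages shared no batch. Without terms for sex and batch Scd1 (4.13), Elovl6 (2.84), Fasn (2.41), Acacb (2.35) and Thrsp (2.16) were called higher too. Age and batch cannot be told apart for this step either. The call of Acaca held in 4 of 9 alternatives and was lost with a pseudocount of 5, with equal totals, without a filter, with edgeR and with DESeq2 (adjusted p of at most 0.0871).

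**Figure D4:**
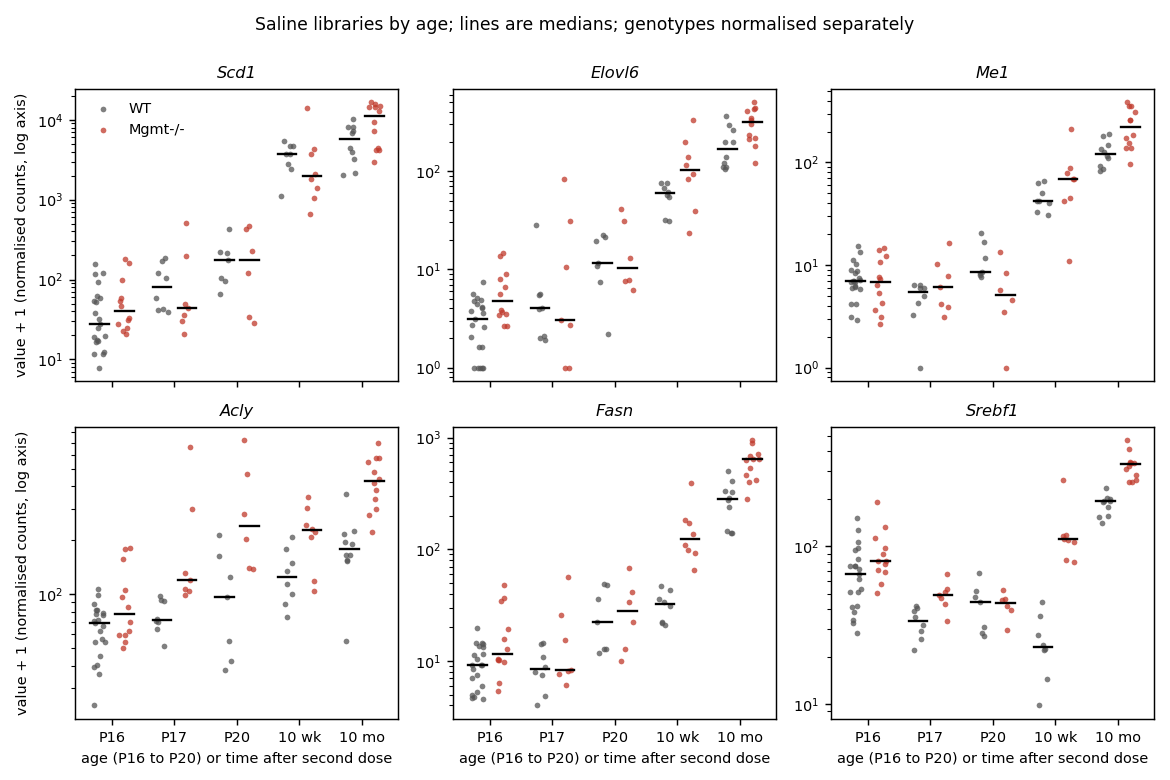
Normalized value of Scd1, Elovl6, Me1, Acly, Fasn and Srebf1 in each saline library (vertical axis, value plus 1, log scale) against time of collection, with WT and Mgmt-/- livers marked apart and lines at the medians; the genotypes were normalized separately. Scd1 medians in WT livers were 26.8 at Day1 and 3721 at Week10, while those of Srebf1 were 65.7 and 21.9. WT livers of Day1 and Week10 shared no library batch, so age and batch cannot be told apart in these medians.

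Between Week10 and Month10 the WT members that rose were Fasn (2.93 ± 0.33), Srebf1 (2.97 ± 0.21), Acacb (2.20), Elovl6 (1.69), Acaca (1.54) and Me1 (1.54). The Mgmt-/- livers had 8 of 9 members higher, with Fasn at 2.13, Scd1 at 1.96, Me1 at 1.92 and Srebf1 at 1.50, and Thrsp was the exception (-0.32 ± 0.67). Those counts stand beside 39.8% and 31% of all genes called higher, and the median over all genes was 0.365 and 0.184. Scaling moved those medians to 0.753 and 0.562 with equal totals and to 0.0991 and 0.0611 with edgeR, and the genes called higher and lower went from 3602 and 1923 to 2950 and 2788 with edgeR in WT livers and from 3064 and 1980 to 2218 and 2407 in Mgmt-/- livers. Srebf1 medians went from 21.9 to 191 in WT livers with no overlap. The clock genes moved over the same step in WT saline livers, where 7 of 10 tested were higher, the summed level of 12 genes had a median of 109 at Week10 and 486 at Month10 and Dbp, a clock output gene, was 2.86 higher. The part of time of day in the age differences was not tested.

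Sex was examined in Mgmt-/- adults. In saline livers of Week10 and Month10 together, limma called 0 of 9 members between males and females, beside 4.2% of all genes, with 4 at an unadjusted p under 0.05 and 2 called by edgeR. All 9 estimates, male minus female, were above 0, as for Fasn (0.69 ± 0.22, adjusted p = 0.0748) and Scd1 (1.16 ± 0.38, 0.0959). The response to NDMA differed by sex for 0 of 9 members at Week10 (0.114% of all genes, 0 members at an unadjusted p under 0.05) and for 0 of 9 at Month10 (0.338%, 5 at an unadjusted p under 0.05, 0 by edgeR). At Month10 Fasn ran from 279 over 457 to 641 in saline females and from 642 over 706 to 952 in saline males, and from 212 over 286 to 735 in NDMA females and from 44.5 over 179.8 to 618 in NDMA males (difference of the differences -1.76, adjusted p = 0.0899).

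Other genes of the pathway were read from lists of neighbouring steps. Among regulators in Mgmt-/- livers, 3 of 18 tested fell at Day1, 4 of 16 at Day2, 4 of 16 at Day5, 3 of 18 at Week10 and 3 of 18 at Month10, while 1 of 16 rose at Day5 and 1 of 18 at Week10. The shares of all genes called lower at the 5 times were 8.64%, 7.5%, 6.71%, 3.88% and 2.99%, and the counts of this list and the next ones are to be read beside them. Insig1, which holds SREBP in the endoplasmic reticulum and is itself an SREBP target, fell at all 5 times, most at Day5 (-2.81), where saline livers ran from 4.71 over 36.6 to 64.7 and NDMA livers from 0.712 over 2.13 to 7.17. Its values at Week10 were 77.5, 95.2 and 242 with saline and 19.3, 33.6 and 54.5 with NDMA (-1.63 ± 0.22), with no overlap. Mlxipl, which encodes ChREBP, fell at Day1 (-0.64), Day5 (-1.37) and Week10 (-1.54), and Mid1ip1, the Thrsp paralog, at Day5 (-1.51), Week10 (-1.49) and Month10 (-0.65). Nr0b2, a nuclear receptor without a DNA-binding domain, fell at Day1 (-1.15), Day2 (-1.24) and Day5 (-0.70).

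Of the glucose and insulin genes, liver pyruvate kinase (Pklr) fell in Mgmt-/- livers at Day2 (-0.71), Day5 (-1.61), Week10 (-1.45) and Month10 (-0.85). Igfbp1, a gene that insulin represses, rose at Week10 (1.60 ± 0.31), with medians of 18.2 and 70.0. The list as a whole had 2 of 14 tested lower at Day1, 3 of 14 at Day2, 2 of 13 at Day5, 1 of 14 at Week10 and 1 of 14 at Month10 in Mgmt-/- livers, the first and the last 2 counts lying about 1 gene or less above the share of all genes, and 1 higher, Igfbp1, at Week10.

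In Mgmt-/- livers the lists of supply and of desaturation and elongation had few calls, and counts of 1 in 9 or 10 are near the share of all genes called at Day1, Day2 and Day5, as 12.4% higher at Day2. Of 9 supply genes tested, 2 rose and 0 fell at Day1, 1 and 0 at Day2, 1 and 3 at Day5, 2 and 0 at Week10, and 1 and 1 at Month10. G6pdx, the first NADPH-producing enzyme of the pentose phosphate pathway, rose at all 5 times, by 0.72 to 1.35. Acss2, which makes acetyl-CoA from acetate, fell at Day5 (-2.03) and Month10 (-1.19). Among desaturases and elongases, Scd2, the isoform that is low in adult liver, rose at Day2 (1.53), Day5 (1.25), Week10 (3.01 ± 0.48, adjusted p = 9.5e-05) and Month10 (2.62 ± 0.33), and its Week10 values ran from 0.866 over 2.53 to 19.6 with saline and from 10.2 over 36.3 to 109.6 with NDMA. That list had 0 higher and 1 lower of 10 at Day1, 2 and 1 of 10 at Day2, 1 and 2 of 10 at Day5, 1 and 0 of 11 at Week10, and 2 and 1 of 11 at Month10. Fads1, the delta-5 desaturase, fell at Day2 (-0.85) and Day5 (-1.39). In triglyceride assembly, Dgat2, which adds the last acyl chain, fell at all 5 times by values from -1.16 to -0.65, Acsl1, which activates fatty acids, at all 5 times from -1.21 to -0.84, and Gpam, the first acyltransferase, at Week10 (-1.17) and Month10 (-0.93). Acsl4, another acyl-CoA synthetase, rose at Day1 (1.20), Day2 (0.84) and Week10 (0.69). The assembly list had 3 of 11, 4 of 11, 3 of 11, 3 of 12 and 3 of 12 genes tested lower and 1, 1, 1, 2 and 0 higher at the 5 times. With MGMT present, regulators gave 3 lower of 16 at Day1, 1 of 16 at Day2 and 1 of 17 at Day5, beside 4.19%, 2.91% and 1.39% of all genes, the single calls being near those shares, and none of these lists had a call at Week10 or Month10.

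Other cell types and the clock were measured beside the members' differences, first in Mgmt-/- livers. From Day1 to Month10, 9.06%, 12.4%, 11.1%, 7.27% and 4.75% of all genes were called higher in Mgmt-/- livers. The shares called lower were 8.64%, 7.5%, 6.71%, 3.88% and 2.99%. At WT Day1 5.01% were called higher and 4.19% lower. The counts here and in the next paragraph are to be read beside these shares. At Week10, 4 of 9 clock genes tested were lower (summed level, median of 319 with saline and 187 with NDMA), and collagen genes of stellate cells were higher (3 of 5 tested, Col1a1 at 2.39, summed level 398 and 642 with Dcn the most abundant gene), as were 3 of 3 genes of dividing cells and 3 of 7 of macrophages. Of the hepatocyte markers 1 of 7 was lower (Serpina1c, -1.01, summed level 228602 and 159398, Ttr the most abundant gene). The cholangiocyte marker Spp1 was 3.13 higher and the endothelial marker Lyve1 1.17 higher. At Month10 0 of 10 clock genes passed, and markers of other cell types were higher, namely 2 of 6 stellate genes (Col1a1 at 1.66 and Col1a2 at 1.00), Spp1 (2.48), Lyve1 (1.46), Cd68 of macrophages (1.29) and Top2a of dividing cells (1.84). Summed stellate levels at that time were 514 and 531, with Dcn again the most abundant gene, summed macrophage levels 375 and 582, and 1 of 7 hepatocyte markers was higher with summed levels of 173700 and 177921.

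In the pups of the same genotype, 3 of 7 hepatocyte markers (summed level 309044 with saline and 203584 with NDMA) and 5 of 5 genes of red cell precursors were lower at Day1, as were 4 of 5 stellate genes and Spp1 (-0.79). Macrophage genes at Day1 moved both ways (2 higher and 3 lower), as did endothelial genes (1 higher and 3 lower). At Day2 3 of 7 hepatocyte markers were lower (Alb, Serpina1c and Ttr, summed level 370239 and 249202), as were 3 of 5 genes of red cell precursors and 3 of 5 stellate genes, while 4 of 7 macrophage genes (Adgre1, Cd5l, Cd68 and Marco), 3 of 5 genes of dividing cells and the T cell gene Cd3g (1.79) were higher. At Day5 1 of 7 hepatocyte markers (355656 and 267032), 4 of 5 genes of red cell precursors and Spp1 (-1.41) were lower, and 4 of 7 macrophage genes, 2 of 5 genes of dividing cells and Cd3g (2.22) were higher. Col3a1 (-0.83), Clec4g (-0.74) and Stab2 (-1.13) were lower too at Day5, and Lyve1 (0.77) was higher. Endothelial genes also moved both ways at Day2 (Lyve1 0.97, Pecam1 0.91, Stab2 -0.95), and Cdk1 of dividing cells was higher at Day1 (0.77). The clock gene Dbp was higher in these pups, with medians of 19.5 and 42.2 at Day1 (1.06) and 19.1 and 34.4 at Day2 (0.72) and a log2 fold change of 1.02 at Day5, and lower at Week10 (-1.07). From the adipocyte list, Cidec, a lipid droplet protein, was higher at Day1 (2.48), Day2 (2.87), Day5 (4.43) and Week10 (2.19), and Car3, its most abundant gene, which the liver also expresses, was lower at those times (-1.44, -1.78, -2.32 and -1.32), while the defining genes Adipoq and Lep had a median of 0 in every Mgmt-/- group. In WT livers at Day1 3 of 5 stellate genes (Col1a2 at -0.94, Col3a1 at -1.15 and Lrat at -0.92) and Stab2 (-0.97) were lower, 3 of 7 macrophage genes (Marco at 1.01, Cd68 at 0.80 and Cd5l at 0.62) and Spp1 (0.65) were higher, Csf1r (-0.59) was lower, and 0 of 7 hepatocyte markers passed. The part of these other genes in the members' differences was not tested.

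Scaling set part of the count in Mgmt-/- livers. When each library was instead set to an equal total, the median over all genes moved to 0.203 at Day1, 0.195 at Day2, 0.172 at Day5 and 0.241 at Week10. The split of genes called higher and lower at Day1 then went from 911 and 869 to 1635 and 512, at Day2 from 1170 and 710 to 1681 and 413, at Day5 from 1037 and 624 to 1451 and 412, and at Week10 from 704 and 376 to 1162 and 177. At Week10 Fasn (-1.23), Srebf1 (-1.85) and Thrsp (-2.33) were still called, and at Month10 Acly, Fasn, Me1 and Thrsp. Srebf1 and Thrsp kept their calls at Day1, Day2 and Day5, and so did Fasn at Day5 (-3.01). In WT livers at Day1 the split went from 452 and 378 to 526 and 279, and Srebf1, Thrsp, Scd1 and Elovl6 were called. At WT Day2 it went from 285 and 249 to 384 and 181, and at WT Day5 from 192 and 120 to 279 and 325 with edgeR. At Mgmt-/- Week10 edgeR gave 558 and 499, and at Month10 the split went from 478 and 301 to 701 and 266 with DESeq2. For the saline steps equal totals took it from 355 and 717 to 234 and 1342 between Day5 and Week10 in WT livers and from 218 and 299 to 93 and 686 between Day1 and Day5 in Mgmt-/- livers, where the all-gene medians became -0.307 and -0.294. Between Day1 and Day5 the WT split was 22 and 17, 37 and 10 with equal totals and 41 and 9 with edgeR, and the Mgmt-/- split was 388 and 335 with edgeR. Between Day5 and Week10 edgeR took the Mgmt-/- split from 218 and 274 to 192 and 369, and between Week10 and Month10 equal totals gave 4702 and 1105 in WT and 4614 and 964 in Mgmt-/- livers. The difference of the sexes in response at Month10 went from 23 and 11 to 7 and 0 with equal totals (all-gene median -0.21), and that of the genotypes at Day1 from 2 and 4 to 13 and 79 with DESeq2.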

How the data were processed

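RNA had been prepared from pieces of whole liver and sequenced as 3′ digital gene expression libraries with molecular barcodes. Per the study's methods and the submitters' processing notes, the authors aligned reads with STAR to GRCm38 (mm10), counted molecules with ESAT and normalized the counts with DESeq2's median of ratios, each genotype separately, and the deposited values are therefore a normalized signal per gene, not counts. In 209 of 213 libraries all steps between values gave back whole counts, within a tolerance of 0.01, and the 4 others (3 of the 8 WT saline livers of Day2 and 1 Mgmt-/- NDMA liver of Day1) were left out of edgeR and DESeq2. The depth is that of the recovered counts, 4 WT libraries being under 300000. Of 214 labelled livers, 1 Mgmt-/- saline Month10 liver was not analysed here. Kap above 1000 removed 2 libraries.

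A gene entered a comparison when its mean there reached 5, and was tested with limma 3.58.1 (R 4.3.3) on log2(value + 1), so that changes of low genes are understated, with terms for sex and library batch where both could be fitted, and p-values were adjusted over all genes by Benjamini and Hochberg. From Day2 to Week10 the 2 WT batches each held 1 sex. Age steps were fitted over all saline livers of a genotype. The interaction of genotype and treatment and the genotype difference were fitted with edgeR 4.0.16 on recovered counts, by the quasi-likelihood test. Alternatives were pseudocounts of 0.5 and 5, no filter, a mean of 20, no covariates, equal totals, edgeR, DESeq2 1.42.0, single batches, doubted libraries left out or kept, and each library of groups of small size left out. Fits were tested on simulated data. Plots used matplotlib 3.10.9, and tables numpy 2.4.6 and pandas 2.3.3, under Python 3.11.15. Gene positions are from GENCODE vM21 and promoters from RefSeq, GRCm38.p6.

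All 10 members are named. Of each list of neighbouring steps, up to 4 genes called in the most comparisons of NDMA with saline could be named, and 1 gene of the glucose and insulin list is not reported here. The members and lists were chosen with earlier results of these data known.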

Additional observations from a re-analysis of the deposited data

Results flagged for a closer look

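Within groups of 4 to 10 livers, 20 of 129 sets of member values held 1 library far above the rest, judged by its gap to the next value, and in each the highest library stood apart. The cutoff is one that about 1 in 20 sets of independent, normally distributed values would pass. These sets share libraries and all flags were at the high end, so that rate does not apply to them. The Mgmt-/- saline Day2 library D389006 stood apart for Fasn (55.0, next 24.8), Acacb (12.9, next 3.46), Acly (663, next 298), Scd1 (509.6, next 198), Elovl6 (82.5, next 29.9) and Thrsp (4148, next 1665). The Mgmt-/- saline Week10 library D209001 did so for Fasn (387, next 182), Scd1 (14122, next 4353), Srebf1 (261, next 116) and Me1 (211, next 86.8). Among Mgmt-/- NDMA livers, D389083 stood apart at Day2 for Acacb (3.33, next 1.08), D389078 at Day5 for Elovl6 (22.7, next 14.1), and at Week10 D209007 for Acly (231, next 139.8) and Pnpla3 (3.49, next 0.882) and D209008 for Srebf1 (78.4, next 42.3). The saline Week10 library D209027 had Pnpla3 at 1.73 with all others at 0.

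WT libraries standing apart were D202019 (saline Week10) for Acacb (19.9, next 9.78), D215004 (saline Day2) for Elovl6 (27.0, next 4.67), D202004 (saline Day2) for Thrsp (149, next 84.1) and D215006 (NDMA Day2, the library with the fewest counts) for Thrsp (137, next 88.7).

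The change with NDMA passed the test of a difference between genotypes, in Mgmt-/- minus WT log2 fold changes, for Thrsp at Day2 (-6.83), Day5 (-2.79) and Week10 (-3.70), for Fasn (-1.51) and Srebf1 (-2.10) at Week10, and for Acly (-1.06) and Me1 (-1.74) at Month10. At Day2, Day5 and Week10 the genotypes came from different library batches, so that genotype and batch cannot be told apart. At Month10 only part of the WT livers shared the batch of the Mgmt-/- livers.

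In the 2 dropped saline libraries with high Kap, D389011 and D389017, Elovl6 was at 67.2 and 43.0, against at most 39.9 in the other saline Day5 livers, and Me1 was at 21.8 and 26.1, against at most 12.3.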

How the results depend on the processing

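The 8 calls of saline Week10 against Day1 within 1 batch were tried under no alternative. Of 771 alternatives with an adjusted p to the 65 other called member values, 681 kept the direction and the call, 88 kept the direction without the call and 2 turned, and DESeq2 gave no adjusted p for 1 (Thrsp, Mgmt-/- Day2). Those 2 were in WT Day1 batch 200803Eng alone, Scd1 at -0.22 and Srebf1 at 0.38. For the WT step from Day1 to Day5, Scd1 went from -0.21 to 2.29 without terms for sex and batch. The causes were not tested.

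At WT Day1 the 5 called members became 3 with a mean of 20, and within batches the members called were 3 in 191212Eng (Scd1, Srebf1 and Acly, which is not among the 5), 0 in 200803Eng (0 of all 8965 genes) and 3 in 210901Eng. At WT Day2 0 became 1 with a mean of 20 and 1 without the library under 300000 counts, and at WT Day5 0 became 1 with a pseudocount of 5, 1 with a mean of 20, 3 with edgeR, 3 with DESeq2 and 2 without that library. At WT Month10 0 became 1 in batch 200710Eng (Thrsp, 2.12). At Mgmt-/- Day1 5 became 3 with a mean of 20 and 2 in batch 200803Eng, at Day5 4 became 1 with the Kap libraries kept, at Week10 6 became 3 and at Month10 7 became 4 with equal totals.

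For saline Day5 against Day1, 1 in WT became 2 with a mean of 20, 3 with edgeR, 2 with DESeq2 and 5 without covariates, and 5 in Mgmt-/- became 2 with equal totals, 3 without a filter and 3 in shared batches. For Week10 against Day5 in Mgmt-/- 3 became 8 without covariates, and for sex 0 became 2 with edgeR. Leaving out 1 library at a time gave 0 to 1 at WT Day2, 0 to 2 at WT Day5, 2 to 3 at Mgmt-/- Day2, 3 to 4 at Day5 and 3 to 8 at Week10.

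No paired analysis was possible because the labels give every liver its own code. Low depth limits Pnpla3, Acacb in pups and the WT libraries under 300000 counts, where a listed 0 is not absence.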

Other observations

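Within groups, the 36 pairs of members other than Pnpla3 had Pearson correlations, after removal of group means, of -0.205 to 0.579 in WT livers (median 0.158, 32 above 0) and of 0.0459 to 0.696 in Mgmt-/- livers (median 0.374, 36 above 0). The points share library and depth, so that these are descriptions of 117 WT and 94 Mgmt-/- libraries. Fasn with Scd1 had 0.354 and 0.650, Fasn with Srebf1 0.0739 and 0.515, and Acly with Elovl6 0.185 and 0.696. Of 4916 other genes, those with the highest correlation with Fasn in both genotypes, by the lower of the 2 values, were Tle5 (0.483), Arf5 (0.482), Eif4g1 (0.470), Rdx (0.453) and Nfic (0.447).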
